A study of Mus musculus with 9 samples.

Results

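The change that macrophages showed under either of the fibroblast conditioned media was compared with untreated cells. It was measured as the mean of the CO-CM and PH-CM group means minus the UNX mean, here called the shared contrast. The 6 treated and 3 untreated libraries that enter it are all 9 libraries of the series. Of 53465 genes in the count table, 11950 had more than 1 CPM (counted reads scaled to a common library size, with TMM factors wherever a value is printed) in at least 3 libraries and were tested. A gene was called where the edgeR quasi-likelihood test gave an adjusted p (false discovery rate over all genes tested) no higher than 0.05 and the fold change was no smaller than 1.2. A called gene counted as alike in size when each medium changed it in the same direction by the same call and the 95% interval of the PH-CM minus CO-CM difference lay within a 1.5-fold change either way, which is 0.585 on the log2 scale. By that definition 4012 genes, or 33.6% of those tested, had a response common to both media in direction and size.

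All cells were bone marrow derived macrophages (BMDMs) of male wild-type C57BL/6 mice (C57BL/6J in the study's methods), grown with CSF1 (M-CSF) at 50 ng/ml. UNX cells were left untreated, CO-CM cells received medium conditioned by pulmonary artery adventitial fibroblasts of control calves, and PH-CM cells received medium conditioned by such fibroblasts from calves with hypoxia-induced pulmonary hypertension. Each conditioned medium was a pool, so the 3 libraries of a group repeat the macrophage culture and not the calf. The sources differ on the treatment time, with 16 h in the growth protocol of the labels, 24 h in their treatment protocol and 18 h in the study's methods. The media were supplemented with serum before use. No library came from cells given medium that fibroblasts had not conditioned, so products of the fibroblasts and the change of medium, serum and growth factor cannot be told apart. The age of the mice is not given in the labels.

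BMDMs proliferate in culture as long as CSF1 signals through its receptor to ERK, AKT and the MYC and cyclin D programme. When growth factor signalling falls, FOXO transcription factors enter the nucleus and cell cycle genes driven by E2F and by the DREAM complex are shut off. Lysosomal genes answer to TFEB and TFE3, and sterol synthesis genes to SREBP-2. The lists below give RNA levels of such target genes, and the activity of the factors themselves was not tested.

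The libraries held 62017933 to 84314201 counted reads. The macrophage identity list was detected in full, at a summed level of 21043 to 23011 CPM in UNX, 31308 to 33495 CPM under CO-CM and 34505 to 37910 CPM under PH-CM, led by Lyz2. Markers of other cells were low but several moved with the media. The fibroblast list (12 of 18 genes tested) summed to 280 to 354 CPM in UNX, 353 to 427 under CO-CM and 376 to 484 under PH-CM, led by Col1a1. The endothelial list (3 of 6 genes tested) summed to 142 to 182 CPM in UNX, 408 to 481 under CO-CM and 311 to 330 under PH-CM. Most of that sum was Vwf, with a mean of 268 CPM over the libraries. Of the 3 endothelial genes tested, the shared contrast called 1 higher and 1 lower, with a median of -0.21. The osteoclast list, led by Nfatc1, went from 87.9 to 108 CPM to 143 to 155 and 166 to 179, and the neutrophil list, led by Mmp8, from 7.14 to 9.93 CPM to 16.9 to 18.1 and 24.2 to 32.0. T and NK cell markers summed to at most 17.3 CPM, B cell markers to at most 37.0 (in a UNX library), and dendritic, mast cell and erythroid markers to under 3.35 CPM in each library. The part of other cells in the results was not tested, and in bulk RNA more cells of a type and more RNA per cell cannot be told apart.

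The shared contrast called 3610 genes higher (30.2% of genes tested) and 3639 lower (30.5%), with a median over all genes of 0.005 on the log2 scale. Of these, 1956 higher genes (16.4% of genes tested) and 2056 lower genes (17.2%) were alike in size. In 60.2% of genes tested all 6 treated libraries lay on the same side of all 3 untreated libraries, and among the alike genes this held for 1920 of the higher and 2046 of the lower, as being called under each medium favours. The alike genes had a median of 0.57 when higher (0.55 under CO-CM and 0.60 under PH-CM) and -0.60 when lower (-0.57 and -0.64). Both media share the UNX libraries, so the spread of those libraries enters both values in the same direction. A further 851 genes (7.12%) moved in the same direction but more under PH-CM, 208 (1.74%) more under CO-CM, and 528 (4.42%) had a difference whose size was not resolved. In all, 155 genes (1.3%) were called in opposite directions, 2832 (23.7%) under a single medium and 3364 (28.2%) under neither. Of those called under a single medium the shared contrast called 872 higher and 721 lower. Of those called in opposite directions it called 16 higher and 21 lower. PH-CM and CO-CM themselves differed by the same call in 3244 genes (27.1%).

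**Figure D1:**
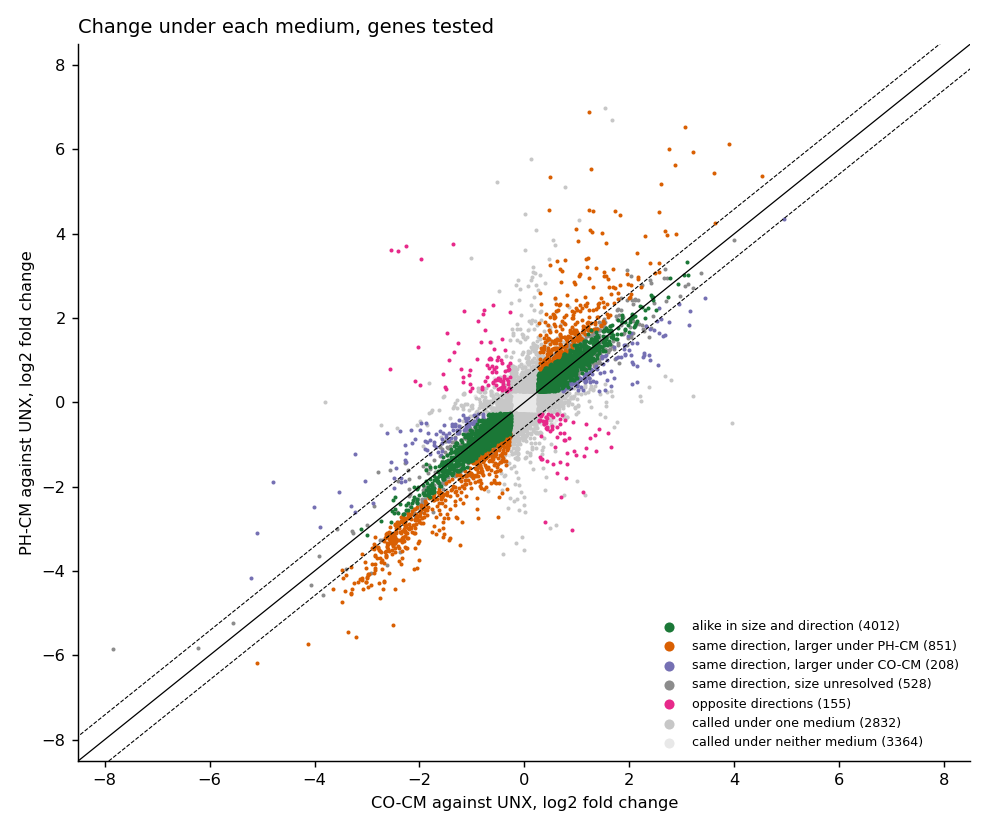
Each point is 1 of the 11950 genes tested, with its log2 fold change under CO-CM against UNX on the x axis and under PH-CM against UNX on the y axis, coloured by class. The 4012 alike genes lie along the line of equality, and the genes that moved more under PH-CM lie steeper than it.

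In amounts of RNA the alike genes were a large part of the library. The alike higher genes took 16.1 to 17.5% of counted reads in UNX, 25.4 to 26.1% under CO-CM and 26.0 to 26.3% under PH-CM. The alike lower genes took 21.4 to 23.2%, 13.3 to 14% and 12.8 to 13.4%. Of the sum of squares between groups, taken over all genes on log2 CPM, 77.2% lay on the shared contrast and the rest on PH-CM minus CO-CM. Of the total sum of squares, 70.2% lay on the shared contrast, 20.8% on the difference between the media and 9.01% within groups. For 75.4% of genes the shared contrast held more than the difference did.

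Small shared responses were mostly alike and large ones were not. Among genes called in the same direction under both media, those higher by less than 1 log2 unit were alike in 84.5% of 1974 cases, those higher by 1 to 2 in 43.7% of 604, by 2 to 3 in 18.3% of 109 and by more than 3 in 11.5% of 26. On the lower side the shares were 88.6% of 1931, 51.3% of 608, 13% of 246 and 1.98% of 101. The 1.5-fold bound is the same for every gene, so a response that differs by a fixed proportion leaves it as the response grows. Among the genes outside it, PH-CM gave the larger change more often than CO-CM did: 76.9% against 3.85% of genes higher by more than 3, and 80.2% against 4.95% of genes lower by more than 3.

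**Figure D2:**
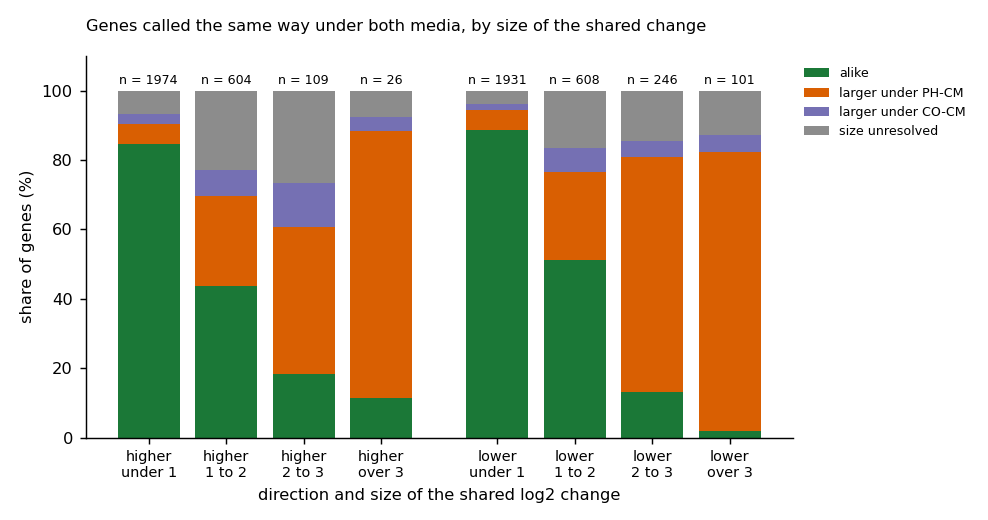
Stacked bars give, for genes called in the same direction under both media, the percentage alike in size, larger under PH-CM, larger under CO-CM and unresolved, by size of the shared log2 fold change (x axis, with the number of genes). The alike share falls from 84.5% to 11.5% on the higher side and from 88.6% to 1.98% on the lower side.

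Cxcr4, the receptor for the chemokine CXCL12, had the largest alike increase among genes with a mean of at least 5 CPM, to which the genes named next are limited. This ranking also left out genes whose treated and untreated libraries overlapped and gene-model or clone names. It lies on GRCm38 chromosome 1 at 128588199 to 128592293, minus strand, and measured 22.5, 31.9 and 30.8 CPM in UNX, 245, 249 and 235 CPM under CO-CM and 292, 273 and 286 CPM under PH-CM. Every treated library was above every untreated one. The shared contrast was 3.21 ± 0.09 (SE) on the log2 scale, a 9.24-fold increase (edgeR adjusted p = 1.71e-09), with 3.10 under CO-CM and 3.32 under PH-CM. Bmf, a pro-apoptotic BH3-only protein, measured 1.76, 3.27 and 2.10 CPM in UNX, 20.2, 23.5 and 18.7 under CO-CM and 20.1, 20.7 and 17.4 under PH-CM. Its groups did not overlap and the treated groups interleaved, with a shared contrast of 3.07 ± 0.17 (edgeR adjusted p = 9.24e-08) and a difference between media of -0.10 (95% interval -0.46 to 0.26). Next came Ypel2 (2.87) and Ypel3 (2.85), small zinc-binding proteins of the YPEL family, and Fbxo32 (2.62), the ubiquitin ligase subunit atrogin-1. They were followed by Zfyve28 (2.48), an endosomal FYVE domain protein, Ccrl2 (2.48), an atypical receptor that binds chemerin, Frat1 (2.47), an inhibitor of GSK3, Ptger2 (2.44), the EP2 receptor for prostaglandin E2, Mgst1 (2.36), a microsomal glutathione transferase, and Hgf (2.26), hepatocyte growth factor.

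Some large increases were nearly equal under the media. Hgf measured 7.45, 8.96 and 8.82 CPM in UNX, 42.9, 39.3 and 37.7 under CO-CM and 40.0, 42.4 and 39.1 under PH-CM. The media differed by 0.02 with an interval of -0.15 to 0.19, so a difference beyond 0.19 lay outside the interval. Ptger2 measured 2.72 to 3.13 CPM in UNX, 15.9 to 16.5 under CO-CM and 15.0 to 16.2 under PH-CM, with a difference of -0.03 (-0.19 to 0.12). Pnpla7, a lysophospholipase, rose by 2.05 with a difference of -0.03 (-0.26 to 0.21), Ccrl2 had a difference of 0.06 (-0.25 to 0.37) and Hist3h2a, a histone H2A gene, rose by 2.08 with a difference of 0.05 (-0.30 to 0.40). Kifc2, a kinesin whose exons overlap those of Cyhr1, was the remaining gene of the 6 with the narrowest reach. The listed counting options name no strand, and the effect of the overlap on its count was not tested.

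**Figure D3:**
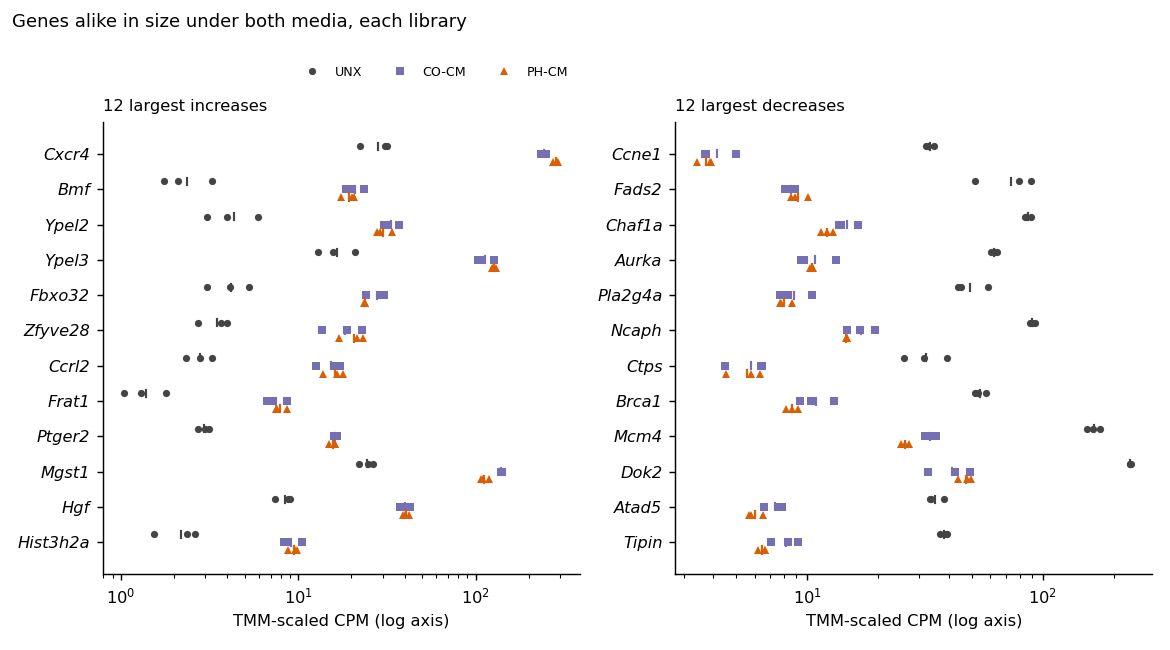
Points give the TMM-scaled CPM of each library on a log axis, and short lines the group means, for the 12 genes with the largest alike increase and the 12 with the largest alike decrease, 3 libraries per group (UNX, CO-CM and PH-CM). For Cxcr4 the untreated libraries sit at 22.5 to 31.9 CPM and the 6 treated ones at 235 to 292, and for Ccne1 the untreated libraries sit at 32.1 to 34.5 and the treated ones at 3.41 to 4.98.

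Ccne1, cyclin E1, which drives entry into S phase with CDK2, had the largest alike decrease. It lies on chromosome 7 at 38097984 to 38107534, minus strand, and measured 34.5, 32.1 and 32.7 CPM in UNX, 3.69, 3.74 and 4.98 under CO-CM and 3.90, 3.41 and 3.89 under PH-CM. The treated groups overlapped each other and lay well under the untreated one. The shared contrast was -3.07 ± 0.09 (edgeR adjusted p = 7.01e-10), with a difference of -0.15 (-0.41 to 0.12). Fads2, the delta-6 fatty acid desaturase, measured 51.6, 89.3 and 79.6 CPM in UNX, 8.88, 8.07 and 8.63 under CO-CM and 10.1, 8.55 and 8.86 under PH-CM, a change of -3.06. The untreated libraries spread more than the treated ones did, with the lowest in replicate 1. Aurka (-2.55), a mitotic kinase, Pla2g4a (-2.55), the cytosolic phospholipase that releases arachidonic acid, Ncaph (-2.51), a condensin subunit, Ctps (-2.50), which makes CTP, Brca1 (-2.48), a homologous recombination factor, and Mcm4 (-2.48), a subunit of the replicative helicase, followed. Then came Dok2 (-2.41), an adaptor that restrains receptor tyrosine kinase signalling, and Atad5 (-2.40) and Tipin (-2.39), which act at the replication fork. Chaf1a, a histone chaperone, measured -2.69, and its exons overlap those of Ubxn6.

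Among genes lower by at least 2 log2 units the narrowest reach belonged to Incenp, the scaffold of the chromosomal passenger complex (-2.02, difference 0.03, -0.11 to 0.18). Aurka measured 62.9, 60.2 and 63.9 CPM in UNX, 9.39, 9.73 and 13.2 under CO-CM and 10.6, 10.3 and 10.5 under PH-CM. The difference for Aurka was -0.04 (-0.29 to 0.21). Espl1 (separase, -2.31), Iqgap3 (a scaffold protein of the IQGAP family, -2.39), Dck (deoxycytidine kinase, -2.04) and Rad18 (a ubiquitin ligase of postreplication repair, -2.05) completed the 6.

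Most regulators of cell cycle entry fell, some by a like amount and some more under PH-CM. Of 34 regulators of cell cycle entry, 23 fell and 8 rose, with a median of -1.21, and 11 of the decreases and 4 of the increases were alike. Here and in the lists below, members counted as risen or fallen are calls in the shared contrast. These include genes called under a single medium or in opposite directions. Members counted as moving more under a medium leave out the alike ones, which can also have a called difference between the media. The shares over all genes tested were 30.2% higher and 30.5% lower, with 16.4% and 17.2% alike. E2f1 measured 92.7, 92.1 and 94.1 CPM in UNX, 35.8, 37.4 and 39.1 under CO-CM and 38.8, 39.6 and 40.8 under PH-CM. The groups did not overlap with UNX and the difference between media was 0.09 (-0.02 to 0.19) against a shared change of -1.27. Cdc25a, the phosphatase that activates CDK2, fell by 1.73, Rbl1, the pocket protein p107, by 1.99 and Skp2, which marks p27 for degradation, by 1.11. The 4 alike increases were Cdkn1b (p27, 1.14), Ccng2 (1.10), Mxd1 (0.67) and Mxd4 (1.73), the last pair being MAX partners that oppose MYC. Ccnd1, cyclin D1, and Myc also fell under both media but more under PH-CM: Ccnd1 by 4.11 under CO-CM and 5.73 under PH-CM, and Myc by 2.91 and 3.46. The exons of Ccnd1 overlap those of LTO1 in the annotation.

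Of 53 DNA replication genes tested, 50 fell, none rose, 24 of the decreases were alike and 25 were larger under PH-CM, with a median of -2.14 (-1.88 under CO-CM and -2.39 under PH-CM). The difference between the media was called for 33 of the 53, some alike genes among them. Pola2, a subunit of DNA polymerase alpha, was among the most alike: 64.0, 58.1 and 58.8 CPM in UNX, 20.4, 20.6 and 22.7 under CO-CM and 21.0, 21.1 and 21.4 under PH-CM. It fell by 1.51 under either medium, with an interval of -0.13 to 0.13 for the difference. Mcm6, another helicase subunit, measured 352, 322 and 343 CPM in UNX, 86.0, 85.1 and 97.5 under CO-CM and 56.7, 48.1 and 48.8 under PH-CM. Here the treated groups were apart as well, by -0.81 (-0.98 to -0.64). Of 68 mitosis and spindle genes 65 fell and none rose, only 9 of them alike and 56 more under PH-CM, with a median of -2.64 (-2.32 and -2.95). Kif11, the spindle kinesin Eg5, fell by 2.46 under CO-CM and 3.46 under PH-CM. Of 35 genes of homologous recombination and Fanconi repair 33 fell (8 alike, 21 more under PH-CM, median -2.12), and of 32 genes of nucleotide supply 28 fell and 1 rose (14 of the decreases and the increase alike, 11 more under PH-CM, median -1.34). Whether the lists differ in their share of alike genes was not tested, and a larger median leaves fewer genes inside a fixed bound.

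Promoter sequence was read for the genes on these lists to show the elements that replication and mitosis genes are known for. RefSeq promoters (GRCm38.p6, 250 bases before to 50 after a start) were matched for 9146 of 11949 symbols tested and searched on both strands. An E2F element (TTTCCCGC, TTTCGCGC, TTTGCCGC or TTTGGCGC) was in 2.26% of all promoters, 4.02% of promoters of genes tested and 33.9% of 56 DNA replication promoters. A CHR element (TTTGAA), which recruits the DREAM and MuvB complexes, was in 17.9%, 12.1% and, for the 65 mitosis promoters, 63.1%. A CCAAT box (CCAAT), bound by NF-Y, was in 37.4%, 38.1%, 55.4% of the replication and 75.4% of the mitosis promoters. It was not particular to them. Other lists described below ranged from 21.7% of 23 growth factor promoters to 76% of 25 unfolded protein response promoters and all 5 YPEL promoters. In the alike lower genes (2048 promoters) the shares were 6.88% for E2F, 14% for CHR and 41.6% for CCAAT, and in the lower genes that moved more under PH-CM (462 promoters) 8.66%, 25.3% and 52.4%. A match is a description of letters and not of a bound site.

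The next 4 stretches, each 5′ to 3′ on the strand of the gene and covering the 150 bases just before its start in GRCm38.p6, show alike genes (Cdc25a, Rbl1) beside genes that fell more under PH-CM (Mcm6, Kif11). Capitals mark the elements, with CCAAT read as ATTGG and CHR as TTCAAA where they lie on the opposite strand.
Cdc25a, chr9:109875429-109875578, plus strand: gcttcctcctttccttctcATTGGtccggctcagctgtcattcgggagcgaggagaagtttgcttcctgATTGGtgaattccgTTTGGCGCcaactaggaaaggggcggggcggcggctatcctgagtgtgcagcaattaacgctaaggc
Rbl1, chr2:157204535-157204684, minus strand: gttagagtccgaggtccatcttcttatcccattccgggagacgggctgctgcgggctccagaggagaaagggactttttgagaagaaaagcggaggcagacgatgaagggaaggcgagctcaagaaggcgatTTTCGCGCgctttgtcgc
Mcm6, chr1:128359706-128359855, minus strand: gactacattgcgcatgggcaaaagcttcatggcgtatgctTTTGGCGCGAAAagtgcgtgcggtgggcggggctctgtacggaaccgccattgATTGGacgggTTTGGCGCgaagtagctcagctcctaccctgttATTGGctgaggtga
Kif11, chr19:37376232-37376381, plus strand: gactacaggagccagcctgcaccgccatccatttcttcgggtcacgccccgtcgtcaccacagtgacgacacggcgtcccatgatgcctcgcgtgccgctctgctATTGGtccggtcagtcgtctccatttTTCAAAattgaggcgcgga
Cdc25a holds 1 E2F element, 67 bases before its start, and CCAAT boxes at 131 and 81. Rbl1 holds an E2F element at 18 and no CCAAT box in this stretch. In Mcm6 the E2F elements at 110 and 106 overlap on opposite strands and a further one lies at 47, with CCAAT boxes at 57 and 14, and in Kif11 a CHR at 19 follows a CCAAT box at 45.

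Genes of ribosome biogenesis fell together and by nearly the same amount under the media. Of 50 tested, 46 fell and none rose, 43 of the 46 were alike, and the median was -0.89 (-0.88 under CO-CM and -0.93 under PH-CM). Nolc1, a nucleolar chaperone, measured 136, 101 and 119 CPM in UNX, 45.5, 32.9 and 39.9 under CO-CM and 43.9, 35.5 and 37.7 under PH-CM. Replicate 1 was the highest and replicate 2 the lowest in each group, and the treated groups overlapped. Its change was -1.60 ± 0.11 (edgeR adjusted p = 3.71e-07) with a difference of -0.01 (-0.31 to 0.29). Nop58, a core protein of box C/D particles, fell by 1.76 (difference -0.22, -0.46 to 0.02), Npm1, nucleophosmin, by 1.02 and Nop2, an rRNA methyltransferase, by 1.06. Dkc1, dyskerin, measured -1.89, and its exons overlap those of Mpp1. Rrp1b was the member outside the alike class that fell more under CO-CM, by 1.14 against 0.37. An E-box (CACGTG), the element of MYC and MAX, was in 7.15% of all promoters, 10.1% of promoters of genes tested and 15.7% of the 51 promoters of the list. The shares were 11.4% in the alike lower and 10.4% in the alike higher promoters. Other lists ranged from 0% (37 promoters of interferon-stimulated genes among them) to 26.6% of 64 promoters of lysosomal genes, most of which rose. The stretch before the start of Nop2, which holds one 60 bases before the start, is shown with the E-box in capitals.
Nop2, chr6:125131733-125131882, plus strand: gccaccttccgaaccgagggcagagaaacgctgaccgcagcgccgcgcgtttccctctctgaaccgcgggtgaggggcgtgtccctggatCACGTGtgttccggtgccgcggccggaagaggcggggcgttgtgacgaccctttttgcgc

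The leading alike increases included genes known as targets of FOXO factors, so a list of 32 such genes was written. It was written after the values were seen and carries no test. Of the 32, 26 were higher and 2 lower, and 18 of the increases were alike. Outside the alike class, no member that moved the same way under both media was called larger under either. The difference between the media was called for 8 of the 32. The median was 0.66 (0.71 under CO-CM and 0.77 under PH-CM), against 0.005 over all genes. Besides Cxcr4, Bmf and Fbxo32 it held Klhl24 (1.99), Bcl2l11 (BIM, 1.45), Il7r (1.41), Gabarapl1 (1.18), Cdkn1b (1.14) and Ccng2 (1.10). Fbxo32 measured 3.09, 5.29 and 4.14 CPM in UNX, 24.3, 30.4 and 29.0 under CO-CM and 23.5, 23.9 and 23.8 under PH-CM. The untreated group lay far under the treated ones, which were close together, with a difference of -0.23 (-0.55 to 0.08). The factors themselves rose less: Foxo1 by 0.40, Foxo3 by 0.63 and Foxo4 by 0.73. Klf2 (-1.35), a transcription factor gene also counted among FOXO1 targets, fell. The FOXO element TTGTTTAC was in 1.23% of all promoters, 0.762% of those tested and 3.03% (1 promoter) of 33 promoters of the list.

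Of the YPEL family, named for Drosophila Yippee, all 4 members tested rose, 3 of them alike, and this list too was written after the values were seen. Ypel3 measured 12.9, 20.9 and 15.7 CPM in UNX, 103, 127 and 107 under CO-CM and 125, 131 and 124 under PH-CM. Ypel2 went from 3.09 to 5.91 CPM to 30.6 to 37.2 under CO-CM and 27.8 to 34.0 under PH-CM. Ypel5, which was the most abundant per length in UNX at 23.0 RPKM against 9.16 for Ypel3, rose by only 0.35. Ypel1 was near the limit of detection at under 2 CPM and its groups overlapped. In the BCL2 family, 7 of 16 genes tested rose and 6 fell, 3 and 4 of them alike. Among all genes tested 30.2% rose and 30.5% fell, with 16.4% and 17.2% alike. Bcl2l1, the anti-apoptotic BCL-XL, measured 259, 264 and 281 CPM in UNX, 68.6, 64.3 and 82.0 under CO-CM and 59.8, 53.3 and 62.5 under PH-CM. The drop of 2.05 on the log2 scale had a difference of -0.29 (-0.49 to -0.09), inside the bound but away from 0. The call of that difference was lost without CO-CM replicate 3 or PH-CM replicate 1 or 2. Anti-apoptotic Mcl1 rose by 0.92 and Bcl2 fell more under PH-CM (a difference not called without CO-CM replicate 3 or PH-CM replicate 2 or 3), while the BH3-only genes Bmf and Bcl2l11 rose and Bid (-0.85) and Pmaip1 (-0.65) fell. The exons of Bid overlap those of Bcl2l13.

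Lysosomal genes rose as a group. The list held 67 genes, for lysosomal hydrolases, subunits of the V-ATPase (the proton pump) and other lysosomal proteins. Of these, 50 rose and 3 fell, 34 of the increases were alike, and the median was 0.53 (0.55 under CO-CM and 0.45 under PH-CM). Atp6v1a, the catalytic subunit of the pump, measured 653, 734 and 722 CPM in UNX, 1070, 1056 and 1053 under CO-CM and 1025, 980 and 1002 under PH-CM. The groups were apart from UNX, and the change of 0.55 ± 0.05 (edgeR adjusted p = 1.88e-06) had a difference of -0.08 (-0.20 to 0.04). Mcoln1, the lysosomal calcium channel, rose by 0.81 with a difference of -0.04 (-0.14 to 0.06). Ctsh, cathepsin H, rose most among the alike members, by 1.94, from 30.1 to 34.8 CPM to 129 to 153 under CO-CM and 104 to 121 under PH-CM, and Ctsf, cathepsin F, rose by 1.46. Psap, the saposin precursor, rose by 1.56 under CO-CM and 1.13 under PH-CM and was outside the bound. The core of the CLEAR element (TCACGTGA, which contains the E-box), bound by TFEB, was in 0.974% of all promoters, 1.88% of those tested, 2.55% of the alike higher promoters and 10.9% of 64 promoters of the list. Atp6v1a shows it 132 bases before the start, in capitals in the bases from 200 to 51 before the start.
Atp6v1a, chr16:44139310-44139459, minus strand: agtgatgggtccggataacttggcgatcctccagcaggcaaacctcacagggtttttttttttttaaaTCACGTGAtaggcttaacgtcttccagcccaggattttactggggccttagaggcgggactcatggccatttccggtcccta

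Most cholesterol synthesis genes fell. Of those that fell under both media and were not alike, none had the larger decrease under PH-CM by the test. Of 26 cholesterol synthesis genes 23 fell and none rose, with 6 alike and 11 larger under CO-CM, and the median was -0.82 (-1.07 under CO-CM and -0.65 under PH-CM). Sqle, squalene epoxidase, measured 209, 262 and 265 CPM in UNX, 103, 93.1 and 105 under CO-CM and 155, 145 and 147 under PH-CM. The 3 groups did not overlap, with a difference of 0.57 (0.38 to 0.76). Among the alike members were Hmgcs1 (-0.56), Mvk (-0.99) and Dhcr7 (-0.70). The sterol element TCACNCCAC was in 1.24% of all promoters and in 1 of the 25 promoters of the list (4%). Of 23 LXR targets and fatty acid synthesis genes 7 rose and 15 fell, 4 and 6 alike, 5 larger under CO-CM, with a median of -0.54 (-0.53 under CO-CM and -0.69 under PH-CM). Among its alike members Apoe (1.97), the lipoprotein, and Smpdl3a (1.12) rose, and Fads2 (-3.06) and Acaca (-1.07, acetyl-CoA carboxylase) fell. Elovl5, a fatty acid elongase inside the bound, fell by 0.75 under CO-CM and 1.13 under PH-CM, a called difference of -0.38 (-0.52 to -0.25). Apoe measured 480, 613 and 599 CPM in UNX, 1992, 2101 and 2033 under CO-CM and 2066, 2575 and 2516 under PH-CM. Fasn, fatty acid synthase, fell by 2.27 under CO-CM and 1.86 under PH-CM.

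**Figure D4:**
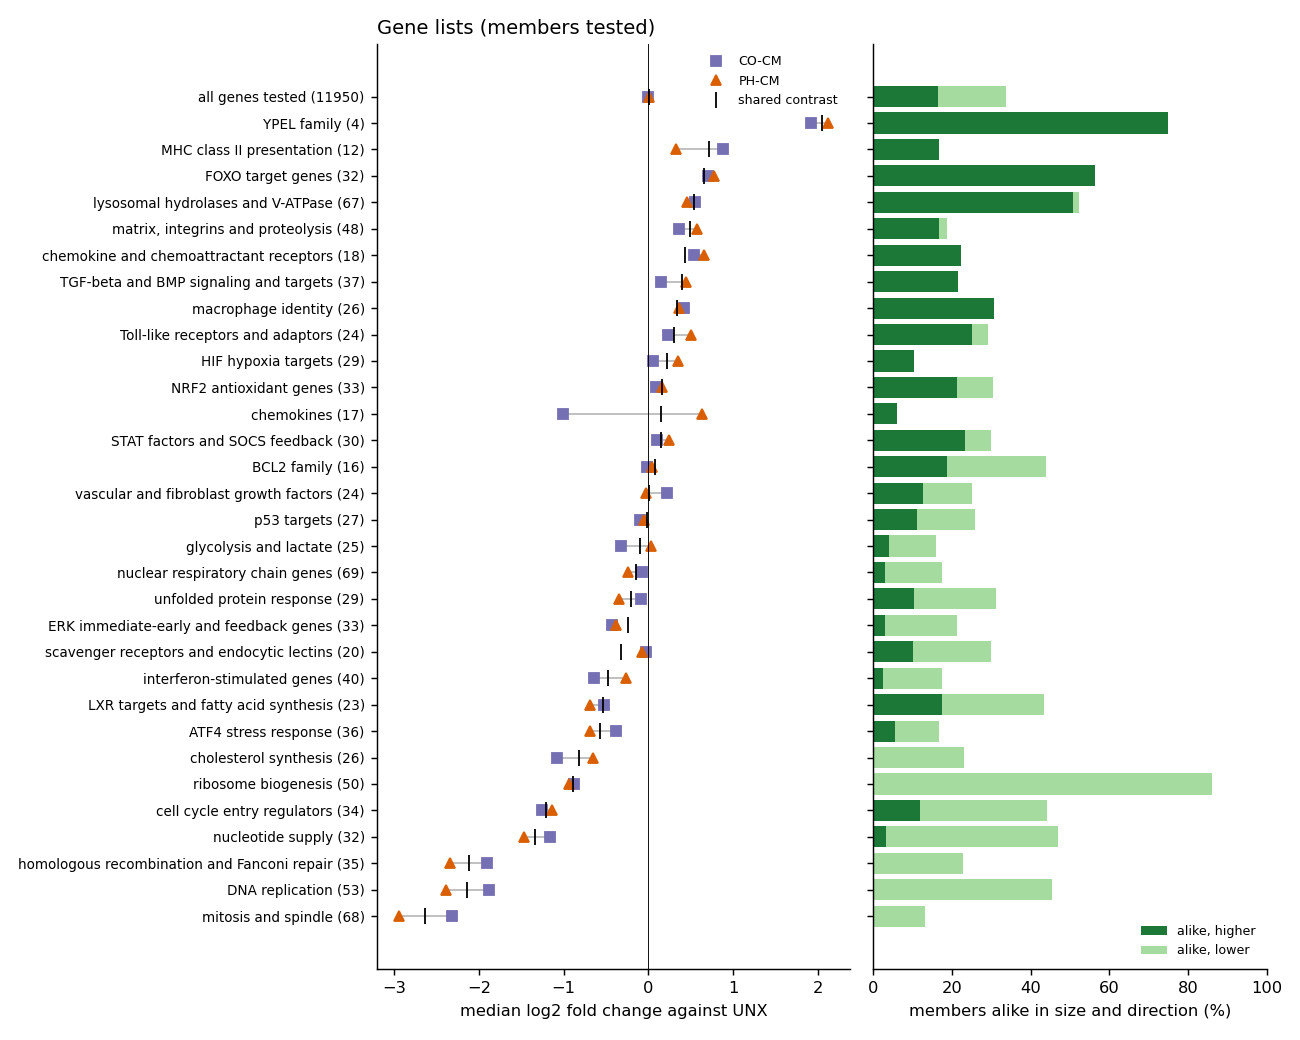
For each gene list, with the number of members tested in brackets, the left panel gives the median log2 fold change against UNX under CO-CM (squares), under PH-CM (triangles) and in the shared contrast (lines), and the right panel the percentage of members alike in size, higher (dark) and lower (light). Ribosome biogenesis has nearly coinciding medians of -0.88 and -0.93 and 43 of 50 members alike, whereas mitosis has medians of -2.32 and -2.95 and 9 of 68.

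Genes that mark macrophages mostly kept or raised their level. Of 26 identity genes 15 rose and 4 fell, 8 of the increases were alike, 3 genes moved more under PH-CM and 2 under CO-CM, with a median of 0.33. Mertk, the receptor for engulfment of apoptotic cells, measured 47.4, 53.5 and 49.7 CPM in UNX, 161, 141 and 128 under CO-CM and 163, 161 and 163 under PH-CM. Its treated groups adjoined and its 3.04-fold increase had a log2 difference of 0.18 (0.01 to 0.35). Lyz2, lysozyme, rose by 0.94 and Adgre1, the F4/80 antigen, by 0.42. Mrc1, the mannose receptor, fell by 2.37 under CO-CM and by 0.67 under PH-CM. Of 20 scavenger receptors and lectins 9 rose and 11 fell (2 and 4 alike, 4 more under PH-CM and 1 under CO-CM, median -0.32), with alike decreases in Msr1 (-1.56), Clec10a (-1.38) and Cd36 (-0.46). Clec10a left the bound without CO-CM replicate 2, and Cd36 was not called under CO-CM without CO-CM replicate 1 (-0.26).

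Among receptors for cues from other cells more members rose than fell, though not all under both media. Of 18 chemokine and chemoattractant receptors 10 rose and 3 fell, 4 of the increases alike, with a median of 0.43. Of the 18, 8 were called in the same direction under both media and 1 in opposite directions. The alike increases included Cxcr4 and Ccrl2 and, with a smaller change, Ptafr (0.89), the receptor for platelet activating factor. Of 24 Toll-like receptors and adaptors 14 rose and 2 fell (6 and 1 alike, median 0.30). Of the 24, 11 were called in the same direction under both media and 3 in opposite directions. Tlr8 measured 80.6, 89.0 and 82.0 CPM in UNX, 261, 241 and 217 under CO-CM and 250, 244 and 239 under PH-CM. Its treated groups overlapped and the change of 1.53 had a difference of 0.03 (-0.12 to 0.18). Of 30 genes of STAT factors and SOCS feedback 13 rose and 5 fell (7 and 2 alike, median 0.14), with Il10ra (1.52) and Il6ra (0.99) alike, and Stat3 (0.60 and 1.13) and Socs3 (1.46 and 2.46) higher under PH-CM. Il6ra measured 71.3, 64.0 and 64.5 CPM in UNX, 144, 137 and 119 under CO-CM and 127, 137 and 129 under PH-CM, with a difference of -0.02 (-0.18 to 0.13).

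The chemokines themselves were seldom alike in size, and several were called in opposite directions under the media. Of 17 tested 6 rose and 6 fell, against 30.2% and 30.5% of all genes tested. The same direction was called in 9 (4 of them larger under PH-CM), a share near that of all genes (5599 of 11950). Opposite directions were called in 5, against 155 of 11950 genes. Only Cxcl12 (0.91) was alike, and the median was -1.01 under CO-CM and 0.64 under PH-CM. Cxcl12 was at the edge of the bound (its interval reached 0.583 from 0) and passed it when any of 8 of the 9 libraries was left out, reaching 0.75 without CO-CM replicate 1. The monocyte attractants Ccl2 and Ccl7 were among the 9 and fell under both media. Ccl2 measured 383, 335 and 433 CPM in UNX, 5.24, 7 and 12.3 under CO-CM and 9.51, 8.90 and 12.4 under PH-CM. The treated groups overlapped, but the difference of 0.32 had an interval of -0.26 to 0.90, so likeness in size could not be shown for it. Ccl7 fell by 6.02 with a difference of 0.39 (-0.15 to 0.93, edgeR adjusted p = 0.239). With the replicate number as a block the Ccl7 difference was called (0.40, edgeR adjusted p = 0.0435), and without CO-CM replicate 3 those of Ccl7 (0.78) and Ccl2 were. Of 40 interferon-stimulated genes 24 fell and 2 rose (6 and 1 alike, 9 more under CO-CM, median -0.48), the increases numbering 1 without UNX replicate 1 and 5 without CO-CM replicate 1. Of 12 MHC class II genes 8 rose and none fell (2 alike, median 0.71), and 4 were called higher under both media.

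Several feedback genes of ERK signalling fell, while other members of the list rose. Of 33 immediate-early and feedback genes 16 fell and 8 rose (6 and 1 alike, 4 more under PH-CM and 3 under CO-CM, median -0.24). In all, 16 were called in the same direction under both media and 4 in opposite directions. The alike shares over all genes tested were 17.2% lower and 16.4% higher. All genes named next are decreases, and neither the increases nor the members called in opposite directions are named. Spred2, an inhibitor of RAF activation, measured 83.7, 76.7 and 80.4 CPM in UNX, 14.5, 13.0 and 16.1 under CO-CM and 18.7, 14 and 17.9 under PH-CM. The change of -2.36 ± 0.09 (edgeR adjusted p = 3.25e-09) had a difference of 0.22 (-0.02 to 0.46). Spred1 fell by 1.79 and the related Spry2 also fell, both alike, whereas the ERK phosphatase Dusp6 fell more under CO-CM (3.23 against 2.60) and the ETS factor Etv5 more under PH-CM (2.99 under CO-CM against 4.14).

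In TGF-beta and BMP signalling 20 of 37 genes rose and 2 fell, 8 of the increases were alike and the median was 0.40. For this and the next 2 lists the shares over all genes were 30.2% higher and 30.5% lower, with 16.4% and 17.2% alike. Bmpr2, the BMP type II receptor, measured 101, 93.0 and 87.6 CPM in UNX, 144, 123 and 113 under CO-CM and 141, 126 and 121 under PH-CM. It rose by 0.45 with a difference of 0.03 (-0.18 to 0.24), and Bmp2 rose by 0.72 and the repressor Tgif1 by 1.22. Of 48 genes of matrix, integrins and proteolysis 28 rose and 10 fell (8 and 1 alike, 13 more under PH-CM and 3 under CO-CM, median 0.50), the alike increases including Mmp14 (1.18), Itgb5 (0.93), Timp2 (0.85) and Sparc (0.58). Of the 12 fibroblast markers tested 8 rose too, 3 of them called under both media, and their part in the matrix counts was not tested. Of 24 genes on a list of vascular and fibroblast growth factors and some receptors, 10 rose and 9 fell (3 and 3 alike, median 0.01). The alike increases were Hgf, Pdgfc (1.97) and Pdgfa (0.40), and the alike decreases Gdf15 (-2.05) and the receptors Nrp1 (-0.89) and Nrp2 (-0.52).

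In lists of energy metabolism and stress the counts were mixed, and several were near the shares over all genes tested. Those shares were 30.2% higher and 30.5% lower, with 16.4% and 17.2% alike. In the nuclear respiratory chain list 23 of 69 genes fell and 2 rose (10 and 2 alike, median -0.14), and 13 were called in the same direction under both media. In glycolysis and lactate 4 of 25 rose and 3 fell (1 and 3 alike, median -0.10). The latter count of decreases was unstable, at 8 with the replicate number as a block, 8 without UNX replicate 1 (where 2 rose) and 6 without CO-CM replicate 2. Of 36 ATF4 stress genes 22 fell and 8 rose (4 and 2 alike, 14 more under PH-CM, median -0.57), with Atf4 itself at -0.80 and alike. Its interval reached 0.577 from 0. It passed the bound without any of 3 libraries (up to 0.66 without PH-CM replicate 3) and with DESeq2 size factors or upper-quartile factors. The Atf4 difference between the media was called, with the larger decrease under PH-CM, but not without any of 4 libraries. Of 29 genes of the unfolded protein response 12 fell and 3 rose (6 and 3 alike, median -0.20). Of 33 NRF2 antioxidant genes 16 rose and 7 fell (7 and 3 alike, median 0.17). Of 29 HIF targets 12 rose and 3 fell (3 and 0 alike, median 0.22), and 6 were called in the same direction under both media. With the replicate block 7 HIF targets fell, and without UNX replicate 2 only 1 did. Of 27 p53 targets 9 rose and 8 fell (3 and 4 alike, median -0.02). Trp53inp1, a p53 cofactor that acts in autophagy, was among the alike increases of the p53 list: 12.3, 19.3 and 15.2 CPM in UNX, 49.4, 50.3 and 47.0 under CO-CM and 50.6, 54.5 and 50.0 under PH-CM.

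**Figure D5:**
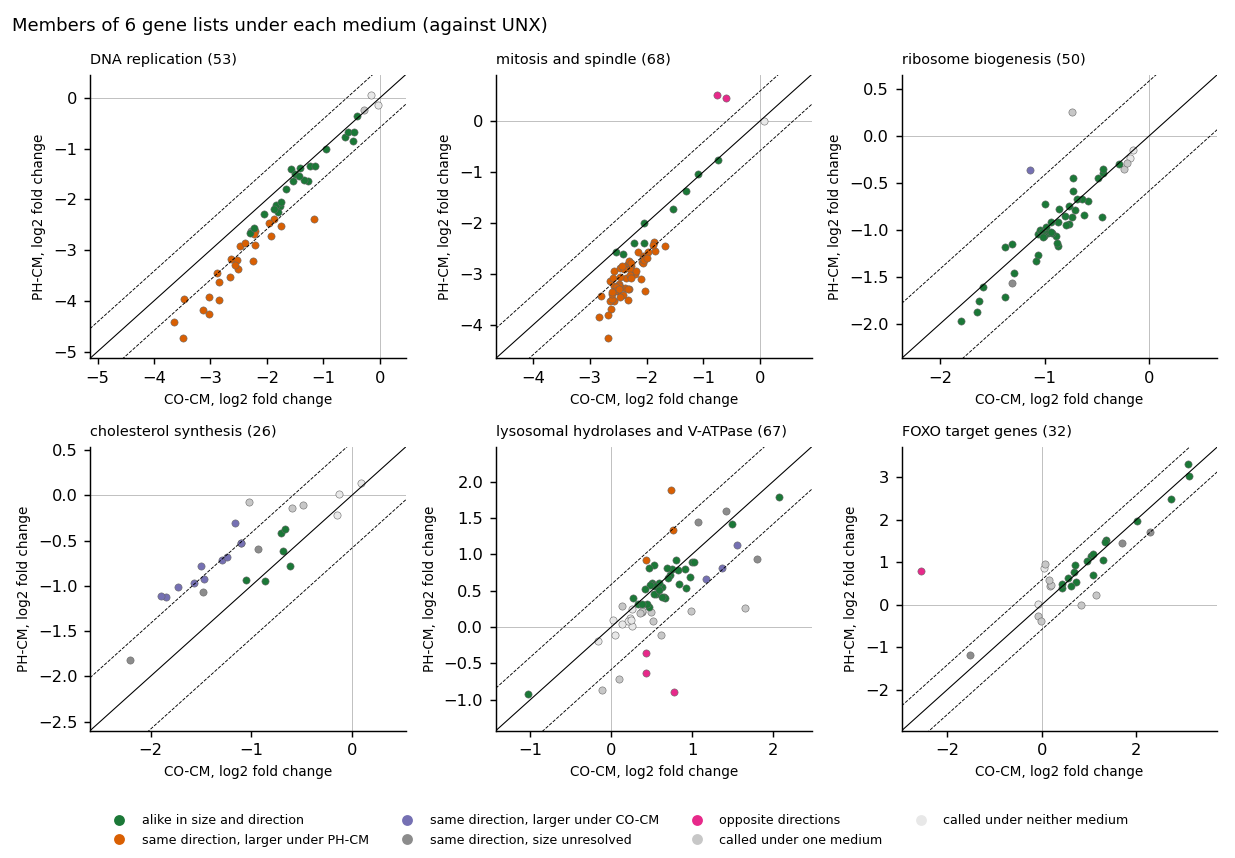
Each point is a tested member of 1 of 6 gene lists, with its log2 fold change against UNX under CO-CM on the x axis and under PH-CM on the y axis, coloured by class, with the line of equality (solid) and the 1.5-fold bound (dashed). Of the ribosome biogenesis members 43 of 50 are alike and lie along the line of equality, while 56 of 68 mitosis members moved more under PH-CM and lie under it.

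The likeness of a response is set by a bound, and genes close to it were similar on either side. Brca1 (interval reaching 0.579 from 0), Rfc4 (0.585) and Stra6l (0.585) were the last inside among genes with a shared change of at least 2, and Ect2 (0.588), Dsn1 (0.593) and Prdm1 (0.595) the first outside. Prdm1, the repressor BLIMP-1, measured 2.59, 2.62 and 2.42 CPM in UNX, 26.1, 31.1 and 21.8 under CO-CM and 19.6, 25.6 and 19.2 under PH-CM. It rose by 3.22, as much as Cxcr4, and its treated groups overlapped. Of 104 alike genes named here, 80 stayed within the bound whichever library was left out, Cxcr4, Ccne1, Hgf, Ptger2 and Aurka among them. A further 3 stayed within it but missed a call under a medium, and so the class, without some library: Cd36 without CO-CM replicate 1, Ypel5 without UNX replicate 1 and Col1a1 without any of 5 libraries. The other 24 passed it without some library, with an interval reaching 0.59 from 0 for Bmf (without CO-CM replicate 3), 0.60 for Ypel3 (without CO-CM replicate 2), 0.65 for Fbxo32 (without CO-CM replicate 1) and 0.62 for Fads2 (without PH-CM replicate 2), and at most 0.76 for Zfyve28 (without CO-CM replicate 2). Cxcl12 passed it without any of 8 libraries, Rfc4 of 7, Brca1 of 6, and Hmgcs1, Stra6l and Zfyve28 of 5. An alike gene could also differ between media by the test of that difference: this held for 186 of the alike higher and 248 of the alike lower genes, while for 1398 and 1342 the interval held 0. Mgst1 is an example, with 138 to 140 CPM under CO-CM, 107 to 119 under PH-CM and a difference of -0.32 (edgeR adjusted p = 0.00282).

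Some genes moved in the same direction under both media by very unequal amounts, and for these the shared contrast averages unlike values. Thbs1, thrombospondin 1, rose by 1.24 under CO-CM and 6.89 under PH-CM, Vcan, versican, by 0.48 and 5.35, and Itga1, the integrin alpha-1 chain, by 1.28 and 5.53. The reverse order was seen for Itgb3, the integrin beta-3 chain (2.15 and 0.47), Abcd2, a peroxisomal transporter (2.54 and 0.89), and Fam214a (2.05 and 0.44). The smaller of the paired changes was not always secure: that of Fam214a missed the threshold when any of 7 of the 9 libraries was left out (all but UNX replicate 2 and CO-CM replicate 1), with library size alone and with filterByExpr, the lowest value being 0.26 without UNX replicate 1. That of Vcan missed it with library size alone and without UNX replicate 2 (0.34), UNX replicate 3 or CO-CM replicate 1. On the lower side Tox2, a nuclear HMG-box protein (-2.50 and -5.27), and Rasgrp3, a RAS exchange factor (-0.51 and -2.71), fell more under PH-CM. Dmpk, a kinase gene (-5.09 and -3.11), its neighbour on the chromosome Dmwd (-4.01 and -2.47) and Mrc1 fell more under CO-CM. These genes were ranked by the difference itself, so their order is a description and not a test.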

How the data were processed

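RNA-seq counts and RPKM were analysed for 9 mouse BMDM libraries, 3 each of UNX, CO-CM and PH-CM. The authors made the deposited read counts with STAR on GRCm38 and featureCounts 1.6.2, after FastQC and AfterQC. They also deposited RPKM (reads per gene length and library size). The submitters' processing notes further name edgeR 3.14 and R 3.4.3. The featureCounts options the study lists hold none for strand or pairing, and the defaults of that tool ignore strand and count each mate separately. Of counts under 20, 81.4 to 83.8% were even. Per the file headers each column names its sample, and columns of other samples numbered 0.

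All tests used R 4.3.3 and edgeR 4.0.16: TMM factors, genes over 1 CPM in 3 libraries, and 1 quasi-likelihood fit of the 9 libraries, Benjamini-Hochberg adjusted over 11950 genes. The contrasts were the mean of the media minus UNX, each medium minus UNX, and PH-CM minus CO-CM. Intervals used the standard error of the fit on 10.3 df. The sum of squares used log2 CPM (prior count 2). The levels printed are TMM-scaled CPM, and RPKM is used where genes are compared with each other. The fit and its calls were run on simulated data with known changes. That simulation changed far fewer genes than moved here and drew libraries with no replicate effect, so it does not cover either trait of the data. DESeq2 1.42.0 was an alternative.

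The 28 functional gene lists, the 9 marker lists and all members were chosen with earlier results of these data known. The FOXO, YPEL and BCL2 lists were added after values were seen, so no list carries a test. Named genes were the 12 largest alike increases and decreases with a mean of at least 5 CPM and groups apart, the 6 most alike of each direction among those changed by at least 2 on the log2 scale, key, extreme or alike members of each list, and the 3 most unequal genes of each kind, of which Sncaip is left out. The neighbours named for overlapping exons, the genes at the edge of the bound, the leading marker genes and Mcm6, Kif11, Rrp1b, Ypel1 and Psap were named outside this rule after their values were seen. Some key, extreme or alike members of the lists are left out of the text.

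Same-numbered libraries deviated from their group means together, with a Pearson r over genes of 0.276 to 0.484 in all pairs, which was read as pairing, and the replicate number was added as a blocking factor in an alternative fit. The labels do not say what a number stands for, so p-values cover only the spread between these libraries. Promoters came from RefSeq tables of GRCm38.p6, and exon overlap from the GENCODE annotation of GRCm38. Intervals cover the spread between libraries and not the calves, the media or the mice. Some results are not reported here.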

Additional observations from a re-analysis of the deposited data

Results flagged for a closer look

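In 14 of the genes named, the change against UNX differed between the media by at least 2-fold with a called PH-CM minus CO-CM difference (edgeR quasi-likelihood test, adjusted over all genes). A difference above 0 means a higher level under PH-CM. The extracellular matrix genes and receptor Thbs1 (5.65), Vcan (4.87) and Itga1 (4.25) were higher under PH-CM, as was Socs3 (1.01). Dmpk (1.99), Mrc1 (1.70) and Dmwd (1.54) were less reduced under PH-CM than under CO-CM. Tox2 (-2.77), Rasgrp3 (-2.20), Ccnd1 (-1.62) and Etv5 (-1.15) fell further under PH-CM. Itgb3 (-1.68), Abcd2 (-1.65) and Fam214a (-1.61) rose less under PH-CM. Several of these genes were ranked by this same difference, so the values are descriptions. Groups of 3 libraries are too small for the test for a single library far from its group.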

How the results depend on the processing

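Each change of a named gene was run under 18 or 19 alternatives. No change against UNX turned direction, and of 138 PH-CM minus CO-CM differences 37 changed sign under some alternative, none of them called under any. The counts of genes higher, lower and alike stayed within 1.5 times their value under other scaling, filters, DESeq2, halved counts and the leaving out of a library, and with the 6 treated libraries as 1 group, where alike genes cannot be counted, 3325 were higher and 3322 lower. Without a library, genes higher numbered 3349 to 3610, lower 3558 to 3670, alike higher 1765 to 1922, alike lower 1908 to 2195 and different between media 2764 to 3376. A 2-fold threshold gave 804 genes higher, 994 lower, 239 and 287 alike and 612 different between the media. A narrower bound of 0.322 on the log2 scale gave 1053 alike higher and 1219 alike lower, and a bound of 2-fold 2459 and 2541. With the replicate number as a block in a paired analysis, 3721 genes were higher, 3698 lower, 2128 and 2174 alike and 3632 different between the media, and beyond the glycolysis and HIF counts given no count of list members moved by over 1.5 times. A test of the bound adjusted over all genes, chosen after seeing the data, gave 2013 and 2097 alike.

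The share of the between-group sum of squares on the shared contrast was 69.3% with no filter on low counts, 74.7% with filterByExpr, 80.9% on log2(RPKM + 1), 73.9% with each gene at unit variance, 77.2% with the replicate block and 75.6 to 79.3% without a library. Upper-quartile factors moved the median of all genes to 0.05 and library size alone to -0.06. Library size alone gave 8 glycolysis genes lower and 4 BCL2 genes higher, and upper-quartile factors 4 interferon-stimulated genes higher. With no filter 10 chemokines were higher, 9 glycolysis genes and 9 HIF targets lower. As 1 group, the treated libraries left 1 macrophage identity, 3 STAT, 1 lysosomal, 7 scavenger receptor, 1 HIF and 1 FOXO gene lower and 3 ERK genes higher, and Rasgrp3 missed the threshold (edgeR adjusted p = 0.0877, and at most 3.4e-08 under its other alternatives). Halving the counts gave 3612 genes higher and 3641 lower. The cause of these shifts was not tested.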
